A study of Mus musculus with 185 samples.

Results

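The complement components and regulators described here are C3, C4b, C1ra, C1s, Cfb, Cfd, Serping1 and Cd59a, a list of complement genes read from the table by their symbols. Of these 8 genes, 7 were found among the 17171 genes of the table, and Cfd was not analysed here. They were followed across 9 classes of single cells, grouped by their labels, in 33 cells of uninjured and 152 cells of infarcted mouse hearts from 4 captures. The value of a gene in a cell is log2(TPM+1). TPM is a transcript abundance corrected for transcript length, and its sum per cell lay between 999257 and 1000000.

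Complement is a cascade of plasma and tissue proteins that labels targets for removal and can open their membranes. In the classical pathway C1q recruits the proteases C1r and C1s, which cleave C4 and C2, while in the alternative pathway factor B and factor D do the corresponding step, and both pathways meet at C3. Host cells are shielded by regulators such as the C1 inhibitor, which blocks C1r and C1s, and CD59, which stops assembly of the membrane attack complex. Complement is known to be activated in infarcted heart muscle, and fibroblasts are among the cells that make its early components outside the liver.

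Interstitial cells came from hearts of C57BL/6 mice (backcross N = 6) of about 5 months of age, and cells positive for CD31 or CD45, which mark endothelial and blood-derived cells, were removed by sorting before single cells were captured with Fluidigm C1. The question was how cells traced from the periostin lineage after myocardial infarction (MI) compare with untraced cells beside them and with fibroblasts of uninjured hearts. Mice carried the eGFP reporter R26-eGFP with a tamoxifen-inducible Cre inserted at 1 copy of Postn (Postn MCM/+) or of Tcf21 (Tcf21 MCM/+). A traced cell is thus one in which the driver gene was active while tamoxifen was given. Tracing alone does not show that a cell still transcribes that gene. The labels, however, also call the Postn-traced cells Postn+ and the Tcf21-traced cells Tcf21+. Tracer and Postn status therefore both differ between the Postn-traced and the Postn-negative cells. Lineage-traced infarct cells of both lines were taken 7 days after MI. The labels do not name the mouse line of the untraced cells.

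The uninjured hearts gave 33 cells, all in the Jul24 capture. Of these, 12 were labelled Postn- CD31- CD45-, called uninjured CD31- CD45- cells here, and 17 were Tcf21-traced. A further 3 were Tcf21-positive with Postn and 1 was a Postn-positive CD31- CD45- cell. Infarcted hearts gave 152 cells, which the labels call activated. The Jul29 capture held 24 Postn-negative untraced cells, 27 Postn-traced cells and 6 Postn-positive untraced cells. The Nov4 capture held 44 Tcf21-traced and 19 Postn-positive untraced cells, and the Nov11 capture held 29 untraced cells from the scar and 3 Postn-positive untraced cells. Only the label of the scar cells says untraced, and the labels of the other cells called untraced here name no tracer. The labels do not say from which mouse a cell came, so a class within a capture is 1 sample, and cells are not replicates. No test that takes account of capture was possible, since no pair of classes was captured together more than once, and none was run. Of the 7 classes of at least 12 cells, 6 came from a single capture each. The Postn-positive untraced class came from 3, its levels are pooled over them unless a capture is named, and its values by capture are given where they change an order. Means are therefore given with the SD between cells as a description, and a class is called higher or lower when means differ by more than 1 log2 unit. Shares of cells above 5 TPM have exact 95% Clopper-Pearson intervals that cover counting error only.

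TPM keeps no sequencing depth, so the number of genes above 5 TPM in a cell is given in its place. Its median was 2091.5 in the uninjured CD31- CD45- cells, 2264 in the uninjured Tcf21-traced cells, 2342 in the infarct Postn-negative cells and 3643 in the Postn-traced cells. It was 3134 in the infarct Tcf21-traced cells, 3280.5 in the Postn-positive untraced cells (2234.5 in Jul29, 3361 in Nov4 and 5179 in Nov11) and 3177 in the scar cells. Genes per cell thus differed between classes, and their part in the differences between classes was not tested. In the scar class 5 of 29 cells had fewer than 300 genes above 5 TPM, with a lowest value of 141. An exact 0 does not show that a transcript was absent. Hprt, a housekeeping gene, was listed at 0 in 18 of 33 cells of the Jul24 capture and in 23 of 57 cells of the Jul29 capture, and Tbp was listed at 0 in 32 of 33 cells of the Jul24 capture, while Actb was above 0 in every cell.

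The cell classes of the labels do not name a fibroblast, so the cells were checked against markers of cell types. At least 3 of 6 fibroblast genes were above 5 TPM in 183 cells, all but 2, and Dcn, the most abundant of them, was above it in every cell. No cell held 3 of the 5 endothelial markers listed. At least 1 of them was above 5 TPM in 10 cells, and Pecam1, the gene of CD31, in 5. Only Tie1 was above it in no cell. The myeloid list reached 3 of 6 markers in 1 cell, an uninjured CD31- CD45- cell with a summed level of 10135 TPM, in whose class Lyz2 was the most abundant gene of the list. The mesothelial or epicardial list did so in 1 infarct Postn-negative cell, and the cardiomyocyte list in 1 infarct Postn-negative and 1 infarct Tcf21-traced cell. The pericyte list did so in 5 cells and the Schwann list in 3. Over all cells the most abundant genes of these 4 lists were Wt1, Tnnt2, Pdgfrb and Egr2, while in the Postn-negative class Krt19 led the mesothelial and Pln the cardiomyocyte list. Neither of the 2 lymphoid markers listed was above 5 TPM in more than 2 cells.

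Smooth muscle markers, of which Acta2 and Tagln are also used by myofibroblasts, differed between the classes. At least 3 of 6 were above 5 TPM in 21 cells, which were 10 of 44 infarct Tcf21-traced, 6 of 28 Postn-positive untraced, 3 of 27 Postn-traced and 2 of 29 scar cells. The median summed level of this list was 266 TPM in Postn-positive untraced, 257 TPM in Postn-traced, 129 TPM in infarct Tcf21-traced, 4.34 TPM in infarct Postn-negative and 1.30 TPM in uninjured Tcf21-traced cells. By capture the Postn-positive untraced cells had 11.9 TPM in Jul29, far below the Postn-traced cells of that capture, 288 TPM in Nov4 and 343 TPM in Nov11. Tagln, its most abundant gene over all cells, was above 5 TPM in 14 of 27 Postn-traced and 1 of 24 Postn-negative cells. In the Postn-negative class Smtn led the list, in 9 of 24 cells. Any gene of the list was above 5 TPM in 12 of 24 Postn-negative and 23 of 27 Postn-traced cells. In the 7 classes of at least 12 cells the median summed level of the Schwann list lay between 3.08 TPM in the scar and 24 TPM in uninjured Tcf21-traced cells, and that of the pericyte list was at most 37.9 TPM. By capture the Postn-positive untraced cells had Schwann medians of 46.9 TPM in Jul29, 11.6 TPM in Nov4 and 116 TPM in Nov11. Their pericyte medians were 20.3, 52.4 and 0.52 TPM. The part of these markers in the complement values was not tested, but each comparison of the 7 members was repeated without cells that held 3 markers of any list other than the fibroblast one (29 cells) and without the 4 such cells of the endothelial, myeloid, cardiomyocyte, mesothelial and lymphoid lists. Both repeats were chosen after seeing the data, the second after the values of the first were known. The 29 cells include the 21 with at least 3 smooth muscle markers. Leaving them out need not remove another cell type, since myofibroblasts also use genes of that list.

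By GENCODE, in the mouse assembly GRCm38, which the name mm10 also denotes, C1ra (chromosome 6, 124512405 to 124523443, plus strand) and C1s, annotated as C1s1 (124530345 to 124542359, minus strand), lie 6901 bases apart, tail to tail. C4b (chromosome 17, 34728380 to 34743882) and Cfb (34856374 to 34862518) are both on the minus strand and 112491 bases apart, and C3 lies farther along the same chromosome (57203970 to 57228136, minus strand). Serping1 (84765387 to 84775444, minus strand) and Cd59a (104095801 to 104115354, plus strand) are both on chromosome 2. Promoters of 5 of the 8 genes were found in RefSeq's table for GRCm38.p6. Those of C3, C1ra and C1s are printed because C1ra varied with both C3 and C1s from cell to cell, and that of Cd59a because Cd59a was listed at 0 in every cell of uninjured hearts. C1s has 2 entries, and the one with a match is shown. Each runs from 250 bases before RefSeq's annotated start to 50 bases after it, on the gene's own strand. For C3, the C1s entry shown and Cd59a this start is the same as the gene boundary given above from GENCODE, while for C1ra it is 124512621, 216 bases downstream of it. Capitals mark matches on either strand to TTCNNNGAA (a GAS-type element), GAAANNGAA (core of an interferon-stimulated response element), TTGCNNAA (a C/EBP-type element) or TATAAA, known as the TATA box, and no matches overlap.
C3 promoter (chr17:57228087-57228386, minus strand): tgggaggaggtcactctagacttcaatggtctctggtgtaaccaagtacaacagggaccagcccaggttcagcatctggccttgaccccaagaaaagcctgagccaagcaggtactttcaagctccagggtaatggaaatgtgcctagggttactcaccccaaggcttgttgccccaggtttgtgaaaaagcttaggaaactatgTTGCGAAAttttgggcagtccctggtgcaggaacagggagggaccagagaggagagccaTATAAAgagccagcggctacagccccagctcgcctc
C1ra promoter (chr6:124512371-124512670, plus strand): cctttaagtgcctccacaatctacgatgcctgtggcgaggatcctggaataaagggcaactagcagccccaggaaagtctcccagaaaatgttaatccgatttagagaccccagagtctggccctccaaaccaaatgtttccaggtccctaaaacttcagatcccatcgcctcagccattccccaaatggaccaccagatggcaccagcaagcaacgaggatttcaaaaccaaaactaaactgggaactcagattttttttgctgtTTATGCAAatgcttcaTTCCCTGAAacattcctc
C1s promoter (chr6:124542310-124542609, minus strand): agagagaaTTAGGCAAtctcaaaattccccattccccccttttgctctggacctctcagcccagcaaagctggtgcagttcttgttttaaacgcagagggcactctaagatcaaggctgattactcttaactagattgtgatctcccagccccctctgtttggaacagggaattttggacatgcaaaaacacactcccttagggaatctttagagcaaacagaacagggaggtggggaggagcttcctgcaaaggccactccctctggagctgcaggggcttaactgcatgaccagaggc
Cd59a promoter (chr2:104095551-104095850, plus strand): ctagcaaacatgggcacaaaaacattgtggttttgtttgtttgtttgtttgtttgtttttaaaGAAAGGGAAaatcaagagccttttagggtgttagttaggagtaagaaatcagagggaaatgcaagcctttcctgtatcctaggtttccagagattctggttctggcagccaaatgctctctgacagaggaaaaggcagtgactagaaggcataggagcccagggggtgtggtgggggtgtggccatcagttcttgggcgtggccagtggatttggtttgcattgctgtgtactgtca
The C3 window held a C/EBP-type match at -45 from RefSeq's start and the TATA box letters at 14, downstream of it. The C1ra window held a C/EBP-type match at 16 and a GAS-type match at 32 from RefSeq's start, inside the gene as GENCODE draws it, the C1s window a C/EBP-type match at -242 and the Cd59a window an interferon-type match at -187. Among the 32851 promoters of the table, 10.8% held the C/EBP-type letters, 8.30% the GAS-type letters, 8.56% the interferon-type letters and 13.6% the TATA box. Each match describes the window only.

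Some of these genes have close copies, and the split of reads between copies is uncertain. Of the 50-base stretches in the longest annotated transcript, 35.2% of those of C4b also occur in C4a, 50.8% of those of C1ra occur in other genes, mostly C1rb, and 24.3% of those of C1s occur in C1s2. Cfb shared 81.4% with the transcript model Gm20547, which is not listed in the table and also shared 58% of the stretches of the neighbouring C2. Cd59a shared 3.98% with Cd59b, and C3 and Serping1 shared 0. The copies that are listed were rarely detected. C4a was above 5 TPM in 11 cells, all of them among the 27 cells with C4b, C1rb in 5 cells, all with C1ra, and Gm5077 in 2 cells, both with C1s. Cd59b was above it in 12 cells, 7 of them with Cd59a at or below 5 TPM.

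C1ra and C1s encode the paired proteases of the classical pathway. C1ra was above 5 TPM in 117 cells and C1s in 112. In infarct Postn-negative cells C1ra ran from 0 to 10.37 with a median of 5.97, and 17 of 24 cells were above 5 TPM (70.8%, interval 48.9% to 87.4%). In Postn-traced cells it ran from 0 to 9.96 with a median of 4.86, and 17 of 27 were above (63%, interval 42.4% to 80.6%). These ranges overlapped over nearly their whole length, and cells at 0 were present in both classes. Among the 7 classes of at least 12 cells, the highest mean of C1ra was that of the uninjured Tcf21-traced cells, 5.49 ± 3.49 (SD between cells, n = 17), and the lowest that of the infarct Tcf21-traced cells, 3.82 ± 3.56 (n = 44). C1ra was above 5 TPM in 13 of 17 of the former and in 23 of 44 of the latter (52.3%, interval 36.7% to 67.5%). The order between them was infarct Postn-negative, Postn-positive untraced, scar, uninjured CD31- CD45- and Postn-traced cells, and each class lay closer to the next than the SD between cells. By capture the mean of C1ra in Postn-positive untraced cells was 3.59 in the 6 cells of Jul29, below the lowest mean above, 4.48 in the 19 of Nov4 and 7.08 in the 3 of Nov11, above the highest.

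C1s followed another order. Its highest mean was in the uninjured CD31- CD45- cells, 6.28 ± 3.90 (n = 12), where values ran from 0 to 11.11 with a median of 6.95. The other 6 classes of at least 12 cells had means between 3.98 (infarct Postn-positive untraced) and 4.98 (infarct Postn-negative), and no gap between neighbours passed the SD. Postn-positive untraced cells had 3.95 in Jul29, 4.15 in Nov4 and 2.92 in Nov11. With that class pooled, the share of cells above 5 TPM was between 55.2% in the scar class and 75% in the uninjured CD31- CD45- cells. Both proteases were above 5 TPM in 87 cells, C1ra alone in 30, C1s alone in 25 and neither in 43.

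C4b, a substrate of C1s, was found in few cells. It was above 5 TPM in 1 of 33 cells of uninjured hearts (3.03%, interval 0.0767% to 15.8%) and in 26 of 152 infarct cells (17.1%, interval 11.5% to 24.1%), and its median was 0 in every class. The uninjured Tcf21-traced class held 0 of 17, which allows a share of up to 17.6% by a limit of 3 counts and up to 19.5% by the exact interval. With the Postn-positive untraced cells pooled over captures (5 of 28), the share above 5 TPM was highest in the scar, 9 of 29 (31%, interval 15.3% to 50.8%). Next were Postn-traced cells, 7 of 27 (25.9%, interval 11.1% to 46.3%), whereas 3 of the 44 infarct Tcf21-traced cells had it. With a minimum above 0 the scar and the Postn-traced cells changed order, since C4b was listed at 0 in 18 of 29 and 16 of 27. In the Jul29 capture, that of the Postn-traced cells, C4b was in 3 of 6 Postn-positive untraced cells (interval 11.8% to 88.2%). This is a higher share than in the scar or the Postn-traced cells, while C4b was in 2 of 19 in Nov4 and 0 of 3 in Nov11. The copy C4a was above 5 TPM in the same 3 of 6 Jul29 cells, with a median of 8.59 among them against 6.45 for C4b. The intervals of the scar and the Postn-traced cells overlap, and in those 7 Postn-traced cells the median of C4b was 6.96.

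C3, on which all pathways converge, was above 5 TPM in 136 cells and had the 515th highest mean of the 17171 genes. Uninjured Tcf21-traced cells had values from 0 to 11.38 with a median of 9.05, and infarct Postn-negative cells from 0 to 11.15 with a median of 8.51. In Postn-traced cells they ran from 0 to 11.65 with a median of 5.03, in infarct Tcf21-traced cells from 0 to 11.77 with a median of 7.38, and in the scar class from 0 to 12.38 with a median of 7.30. Each of these classes thus held cells listed at 0 and cells above 11, and their ranges overlapped. Among the 7 classes of at least 12 cells, the means ran from 7.24 ± 3.65 (n = 24, infarct Postn-negative) and 7.07 ± 4.17 (n = 17, uninjured Tcf21-traced) down to 5.21 ± 3.97 (n = 27, Postn-traced) and 4.93 ± 3.84 (n = 28, Postn-positive untraced). The last is a mean over 3 captures, with 6.77 ± 4.46 in Jul29 (n = 6), 4.83 ± 3.56 in Nov4 (n = 19) and 1.87 ± 3.24 in Nov11 (n = 3), so that inside Jul29 this class lay above the Postn-traced cells. No neighbours in the order differed beyond the SD between cells. The share above 5 TPM was 83.3% (interval 62.6% to 95.3%) in the Postn-negative and 66.7% (interval 46% to 83.5%) in the Postn-traced cells, and these intervals overlap.

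Cfb, factor B of the alternative pathway, was above 5 TPM in 27 cells. These were 4 of 33 in uninjured hearts (12.1%, interval 3.40% to 28.2%) and 23 of 152 in infarcted hearts (15.1%, interval 9.84% to 21.8%). In the Jul29 capture 1 of 24 Postn-negative and 2 of 27 Postn-traced cells had it, whereas in the Nov4 capture it was in 8 of 44 Tcf21-traced and 5 of 19 Postn-positive untraced cells. The highest mean of Cfb was in the scar, where 6 of 29 cells had it with a median of 9.74 among them. Of these, 1 cell with Cfb at 11.22 had only 218 genes above 5 TPM. Without the scar cells under 300 genes, Cfb was in 5 of 24, and the scar mean was 2.08 instead of 2.11. The scar cells were all in the Nov11 capture, so capture and class cannot be told apart there.

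Serping1, which encodes the C1 inhibitor, was found in the most cells and had the highest mean of the list, the 63rd highest of all genes. It was above 5 TPM in 176 cells, among them all 33 from uninjured hearts (interval from 89.4%). Infarct Postn-negative cells ran from 8.63 to 14.02 with a median of 12.57, and Postn-traced cells from 2.0 to 13.26 with a median of 11.18. Uninjured Tcf21-traced cells ran from 7.90 to 12.89 with a median of 11.86, and uninjured CD31- CD45- cells from 6.90 to 13.17 with a median of 10.75. Among the 7 classes of at least 12 cells the Postn-negative class had the highest mean and the smallest SD, 12.33 ± 1.03 (n = 24), against 10.51 ± 2.19 (n = 27) in the Postn-traced cells, though the ranges overlapped. Infarct Tcf21-traced cells had 10.46 ± 2.52 (n = 44), the scar 8.92 ± 4.41 (n = 29) and Postn-positive untraced cells 8.83 ± 3.85 (n = 28), with means of 10.46 in Jul29, 8.66 in Nov4 and 6.64 in Nov11. All 24 scar cells with at least 300 genes above 5 TPM had Serping1, and without the 5 other cells the scar mean was 10.25 ± 2.72.

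Cd59a, the membrane inhibitor of the attack complex, was listed at 0 in every one of the 33 cells from uninjured hearts. A count of 0 of 33 allows a share of up to 9.09% by the limit of 3 counts and up to 10.6% by the exact interval. In infarcted hearts it was above 5 TPM in 51 of 152 cells (33.6%, interval 26.1% to 41.7%), which were spread over all 3 infarct captures. Postn-traced cells ran from 0 to 8.15 with a median of 3.09, and 15 of 27 were above 5 TPM (55.6%, interval 35.3% to 74.5%). The Postn-negative cells of the same capture ran from 0 to 10.17 with a median of 0, and 3 of 24 were above (12.5%, interval 2.66% to 32.4%). At 5 TPM these 2 intervals do not overlap, although the levels do. With a minimum of 1 TPM or above 0 the intervals overlap. Cd59a was listed at 0 in 19 of 24 Postn-negative and 12 of 27 Postn-traced cells. Infarct Tcf21-traced cells had it in 17 of 44 (38.6%, interval 24.4% to 54.5%) and scar cells in 9 of 29 (31%, interval 15.3% to 50.8%). Among Postn-positive untraced cells it was in 1 of 6 in Jul29, 4 of 19 in Nov4 and 2 of 3 in Nov11. Genes above 5 TPM had a median of 2342 in Postn-negative, 2258 in uninjured and 3643 in Postn-traced cells, and the part of depth in this contrast of classes was not tested. After the mean of each class within its capture was subtracted, Pearson's r between Cd59a and genes per cell was 0.25 over all cells, -0.01 in Jul29, 0.27 in Nov4 and 0.51 in Nov11. All uninjured cells came from 1 capture, so capture and injury cannot be told apart.

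**Figure D1:**
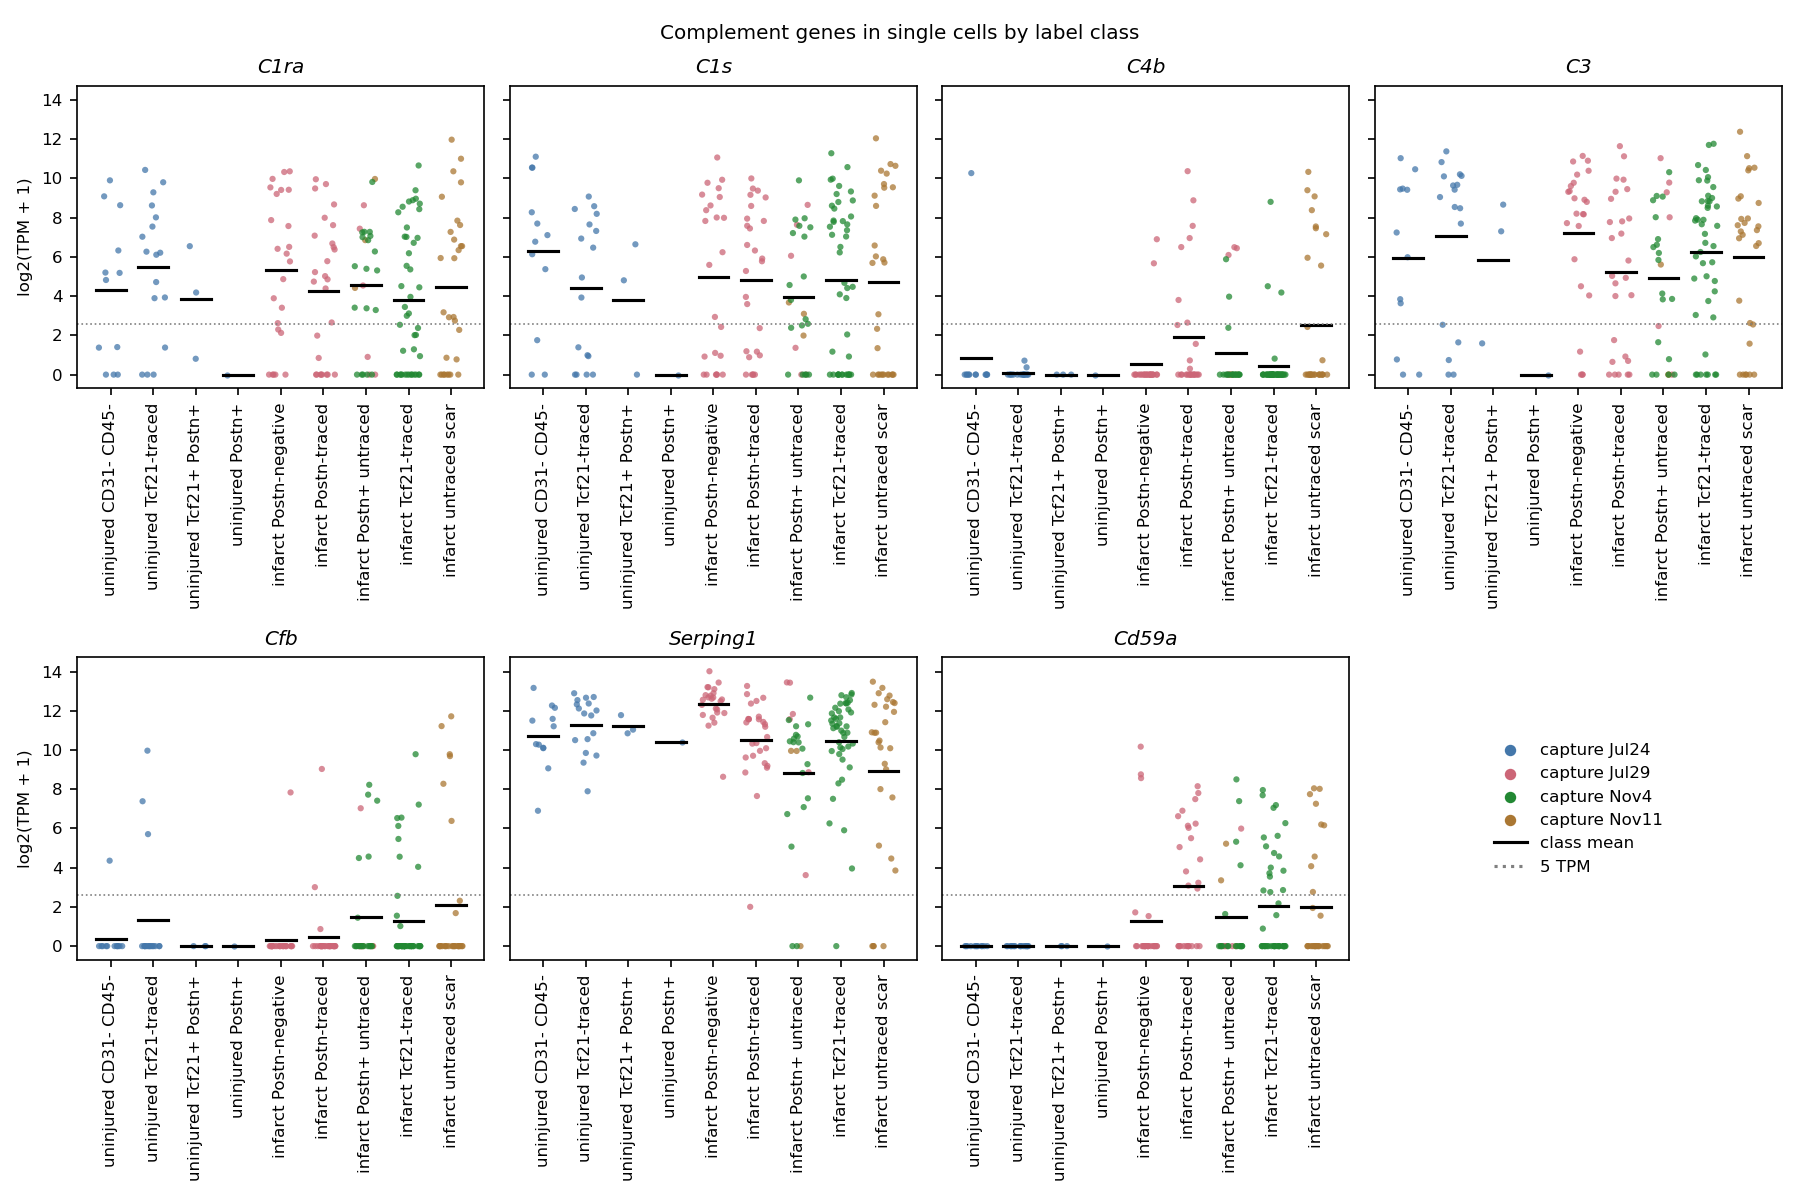
Each point is 1 cell, its height log2(TPM+1) of the gene named above the panel, grouped along the x axis by label class and coloured by capture, with the class mean as a black bar and 5 TPM as a dotted line. Serping1 lies high in nearly all cells, C4b and Cfb are at 0 in most, and Cd59a is at 0 in all 33 cells of the Jul24 capture.

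**Figure D2:**
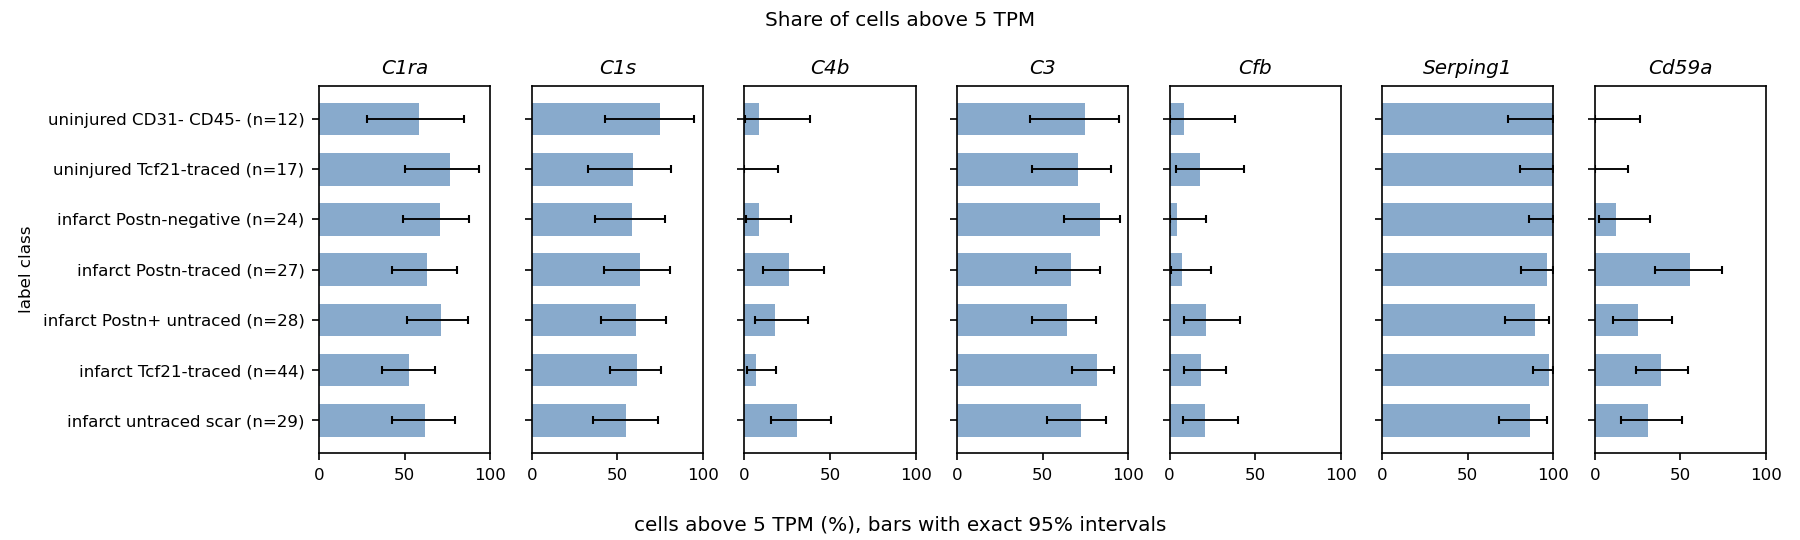
Bars give the percentage of cells above 5 TPM for the 7 classes of at least 12 cells, with exact 95% Clopper-Pearson intervals for counting error. The intervals of most classes overlap within a gene, and Cd59a runs from 0 of 17 uninjured Tcf21-traced cells to 15 of 27 Postn-traced cells.

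The smallest classes had few cells to read. In the 3 uninjured Tcf21-positive cells with Postn, Serping1 was between 10.85 and 11.78, C3 between 1.59 and 8.67 and C1ra between 0.81 and 6.55, with C4b, Cfb and Cd59a listed at 0. The single uninjured Postn-positive cell had Serping1 at 10.42 and the other 6 genes at 0. The number of members above 5 TPM in a cell ran from 0 to 7 with a median of 3. By class its median was 3 in uninjured Tcf21-traced and infarct Postn-negative cells, 3.5 in uninjured CD31- CD45- cells and 4 in the 4 other classes of at least 12 cells. Of these 4, the Postn-positive untraced class had 3 in Jul29, 4 in Nov4 and 3 in Nov11. C3, C1ra, C1s and Serping1 were above 5 TPM together in 76 cells (41.1%, interval 33.9% to 48.5%).

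Postn-traced cells were compared with Postn-negative cells inside the Jul29 capture. C3 was lower in traced cells by a difference of -2.03 in class means of log2(TPM+1), Serping1 by -1.82 and C1ra by -1.04, and C4b was higher by 1.40 and Cd59a by 1.81. Thus 3 of 7 members were lower, where 2.35% of the 15733 genes above 5 TPM in at least 1 cell were lower, and 2 were higher, where 16.7% of all genes were. C1s differed by -0.15 and Cfb by 0.15. The median member difference was -0.15 and that of all genes 0.19. All 7 members were above 5 TPM in at least 10% of cells, as were 7843 genes, called widely detected here, and of these 31.9% were higher and 4.42% lower, with a median of 0.58. The 2 of 7 members that were higher are thus a larger share than that of all genes and a smaller one than that of the widely detected genes. The Serping1 difference exceeded the SD of the Postn-negative cells but not that of the traced cells, and that of C3 exceeded neither. C1ra was past 1 log2 unit in 3 of 8 alternatives, with -0.37 without the 29 cells with markers of other types and -0.72 without the 4. With means of linear TPM the C3 difference was -0.63 and that of Cd59a changed sign to -0.82, where the 3 Postn-negative cells with Cd59a had 8.57 or more and the highest traced cell 8.15. C4b fell within 1 log2 unit with a pseudocount of 5 (0.90) and was 0 with medians over cells.

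Infarct and uninjured cells of the Tcf21 lineage came from different captures, so injury and capture cannot be told apart. C1ra was lower after infarction, 3.82 against 5.49, a difference of -1.67, as 1 of 7 members where 2.65% of all genes were lower. Cd59a was the only member higher, with a mean of 2.04 against a class listed at 0 throughout, where 16.9% of all genes were higher. Serping1 differed by -0.83, C3 by -0.82, C1s by 0.40, C4b by 0.35 and Cfb by -0.10. The median member difference was -0.10 against 0.16 over all genes. Of the widely detected genes 33.4% were higher and 4.72% lower, with a median of 0.62. The C1ra difference was -0.96 without the 29 cells with markers of other types and -0.81 with linear means, both within 1 log2 unit. C1s passed it at 1.55 without those 29 cells and at 1.38 among cells with at least 2000 genes, and C3 did so with medians over cells, at -1.67. With medians Cd59a was at 0 in both classes, and with linear means C4b (3.52), C1s (1.05) and Cfb (-1.17) passed 1 log2 unit.

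Postn-traced cells, set beside the same uninjured Tcf21-traced cells, again came from another capture. C3 was lower by a difference of -1.86 and C1ra by -1.20, 2 of 7 members where 2.51% of all genes were lower. C4b, at 1.92 against 0.06, and Cd59a, at 3.09 against 0, were higher, where 20% of all genes were. The median member difference was -0.78 against 0.22 over all genes. Among widely detected genes 38.1% were higher and 4.51% lower, with a median of 0.71, so that 2 of 7 members higher is again above the share of all genes and below that of the widely detected ones. C1ra was past 1 log2 unit in 4 of 8 alternatives, with -0.86 without the 29 cells, and C3 was within it with linear means, at -0.83. C4b was at 0 in both classes with medians, Cfb passed the limit in 3 alternatives (-1.81 with linear means) and C1s in 1, among cells with at least 2000 genes (1.45). The comparison shares its uninjured cells with the one of the Tcf21 lineage and its traced cells with the one inside the Jul29 capture, so the 3 sets of values are not independent.

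Untraced cells were compared between the infarct Postn-negative and the uninjured CD31- CD45- classes, again of different captures. Serping1 was higher after infarction by 1.62 and C3 by 1.29, and Cd59a had a mean of 1.28 against a class at 0, so that 3 of 7 members were higher where 10.3% of all genes were. C1s was lower by a difference of -1.30, where 5.2% of all genes were lower, and the C1ra difference of 0.996 lay just inside the limit. The median member difference was 0.996 against 0 over all genes, and among widely detected genes 19.9% were higher and 9.09% lower, with a median of 0.25. The uninjured class holds the cell with myeloid markers, and without it and 2 infarct cells the Serping1 difference was 1.36, that of C3 1.17 and that of C1s -2.24. With linear means C3 was within 1 log2 unit at 0.29, and C1s was within it in 3 of 8 alternatives, at -0.92 among cells with at least 2000 genes. C1ra passed 1 log2 unit in 3 alternatives, among them those cells, at 1.24. The Cd59a call rested on 3 of 24 cells and was lost in 3 of 8 alternatives, with a median of 0 in both classes and a mean of 0.94 among cells with at least 2000 genes. With linear means C4b was at -3.70 and Cfb at 2.0.

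The infarct Tcf21-traced cells were compared with both Postn-positive classes. Against Postn-traced cells of another capture, C3 was higher by 1.04, 1 of 7 members where 3.43% of all genes were higher, and C4b (-1.51) and Cd59a (-1.05) were lower, where 6.14% were. Differences had a median of -0.05 over the 7 members and -0.01 over all genes. The widely detected genes had 6.73% higher and 11.4% lower, with a median of -0.09. C3 and Cd59a were each past 1 log2 unit in 4 of 8 alternatives, and without the 4 cells with markers of other types C3 was at 0.99. C4b was within it with a pseudocount of 5 (-0.98) and at 0 in both classes with medians over cells. Without the 29 cells C1s passed it, at 1.17, as did C1ra with medians (-1.80) and Cfb with a pseudocount of 0.1 (1.24).

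Within the Nov4 capture, the Tcf21-traced cells were set against Postn-positive untraced cells. Serping1 was higher in the traced cells by 1.80 and C3 by 1.42, 2 of 7 members where 3.34% of all genes were higher, and 0 of 7 were lower, where 5.05% were. Over the members the median difference was 0.62, and over all genes 0. The shares of widely detected genes were 6.59% higher and 9.14% lower, with a median of -0.04. The medians of genes per cell were 3134 and 3361. Serping1 ran from 0 to 12.90 in the Tcf21-traced cells with 1 of 44 at 0, and from 0 to 12.67 in the untraced cells with 2 of 19 at 0. With medians over cells the Serping1 difference was 0.81, that of C1ra -2.34 and that of C1s 1.65. Without the 29 cells with markers of other types, 13 of which were Tcf21-traced and 5 untraced cells of this capture, Serping1 was at 2.61 and C3 at 2.73, and C1s passed 1 log2 unit at 1.87.

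Before injury, Tcf21-traced cells were compared with CD31- CD45- cells of the same capture. C1ra was higher in the traced cells by 1.16 and C3 by 1.12, 2 of 7 members where 8.65% of all genes were higher, and C1s was lower by a difference of -1.87, where 6.55% were lower. Over the members the median difference was 0.57, over all genes 0 and over widely detected genes 0.14, of which 16.5% were higher and 11.8% lower. C1ra and C1s thus differed in opposite directions between the same cells. None of the 3 differences passed the SD between cells of either class. C1ra was past 1 log2 unit in 4 of 8 alternatives and at 0.89 without the cell with myeloid markers, and C3 was at 0.49 with linear means. Cfb, at 0.99, lay just inside the limit and passed it in 4 alternatives, from 1.05 with centred cells to 4.79 with linear means. With linear means C4b was at -6.63, and with medians Serping1 passed the limit at 1.11.

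**Figure D3:**
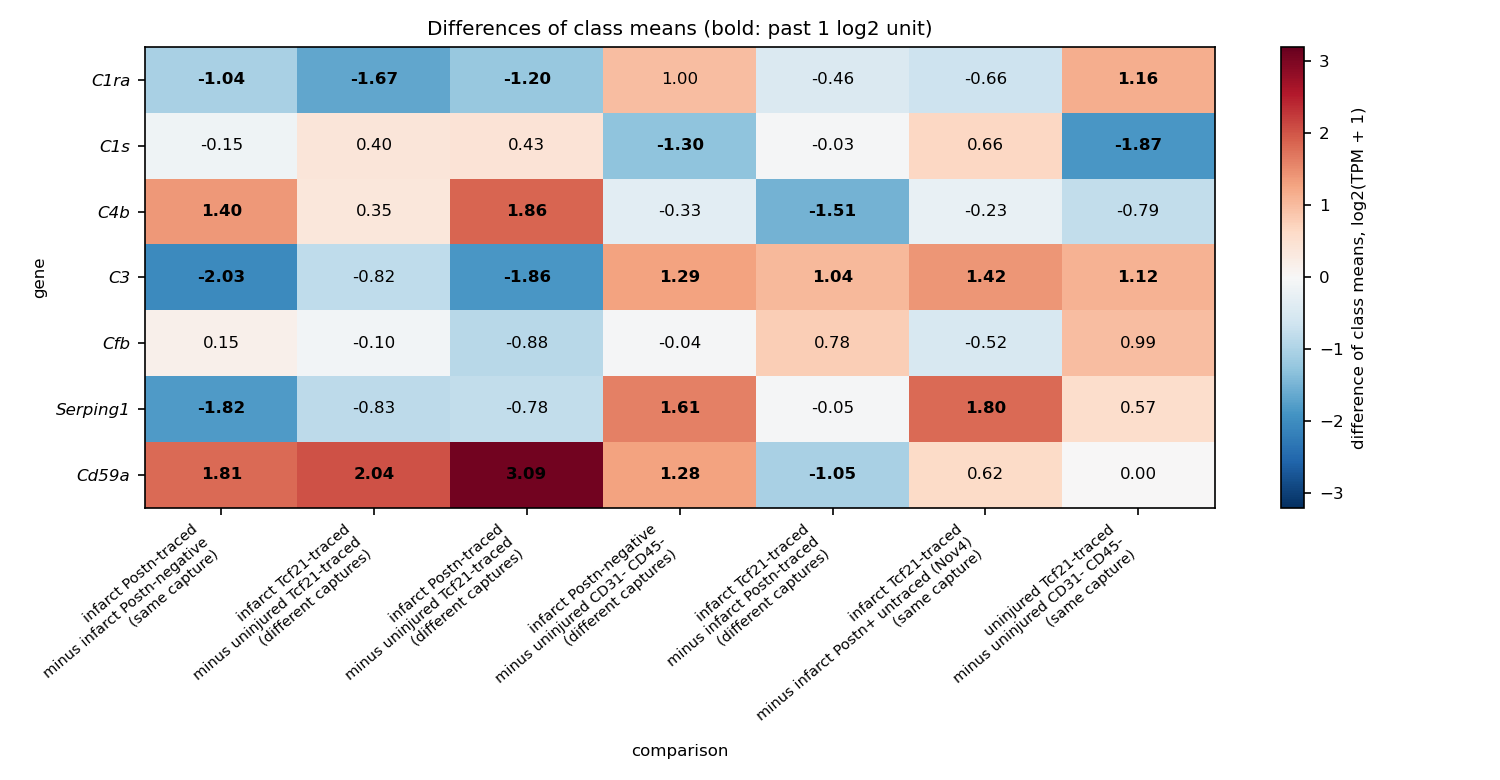
Each cell of the grid gives the difference of class means of log2(TPM+1) for 1 gene (rows) in 1 comparison (columns), the class named first minus the second, with bold numbers past 1 log2 unit. C3 and Serping1 are below 0 in the comparison of Postn-traced with Postn-negative cells and above 0 in that of Postn-negative with uninjured CD31- CD45- cells, and the comparisons share classes.

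Other complement genes were taken from a list of 48, of which 33 were found in the table and 7 were above 5 TPM in at least 10% of the cells. Of those 7, Colec12, C7, Clu, Cd55, Cr1l and C1qbp are described here. C1q, which starts the classical pathway, was scarcely found in these cells, with C1qa and C1qb in 2 cells each and C1qc in 1. C2 was in 10 cells. CD45-positive cells were sorted out before capture, so these counts do not describe the whole heart. Of the terminal components C6, C8g and C9 were in at most 2 cells each. Of the 33 genes, 5 were higher and 3 lower in Postn-traced than in Postn-negative cells, beside 16.7% and 2.35% of all genes. The higher genes were Cr1l, Clu, C1qbp (1.70), C1rl (1.40) and Cfi, which was in 5 of 27 traced cells and listed at 0 in all Postn-negative cells, and the lower genes included C7 and Cd55. In infarct against uninjured Tcf21-traced cells 2 were higher, Cr1l (1.71) and Cd55 (1.28), and 2 lower, among them Colec12 (-1.53), beside 16.9% and 2.65% of all genes. In both comparisons these 33 genes had a median difference of 0, against 0.19 and 0.16 over all genes. Of the 33, 30 were above 5 TPM in at least 1 cell, a filter that all background genes passed. Of the 7 that are widely detected, 3 were higher and 3 lower in the first comparison, beside 31.9% and 4.42% of widely detected genes, and 2 and 2 in the second, beside 33.4% and 4.72%. The medians of these 7 were 0.30 and 0.08, against 0.58 and 0.62. Without the 29 cells with markers of other types the counts over the 33 genes were 5 higher and 3 lower, and 2 and 1, and without the 4 they were 5 and 3, and 2 and 2. C7 was then at -3.76 and -3.79 in the first comparison, and Cd55 at -2.66 and -2.63. These repeats were added after seeing the data, and no other alternative was run for the differences of the other complement and signalling genes.

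C7, a part of the membrane attack complex, had the largest difference of the listed complement genes inside the Jul29 capture. It was above 5 TPM in 12 of 24 Postn-negative cells (interval 29.1% to 70.9%), with values from 0 to 10.16 and a median of 3.6. Among Postn-traced cells it was above in 1 of 27 (3.70%, interval 0.0937% to 19%). The class means were 4.0 ± 3.98 and 0.27 ± 1.40, a difference of -3.73, and the 2 intervals do not overlap. In the Nov4 capture C7 was in 12 of 44 Tcf21-traced and 3 of 19 Postn-positive untraced cells, and in uninjured hearts in 3 of 33.

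The membrane regulators Cd55 and Cr1l, the gene of Crry, both restrain the C3 convertase, and they differed in opposite directions inside the Jul29 capture. Cd55 had a mean of 2.47 ± 3.30 in Postn-traced and 5.37 ± 4.78 in Postn-negative cells, a difference of -2.90, and was 5.49 ± 4.05 in infarct Tcf21-traced cells. Cr1l had 5.54 ± 3.11 in Postn-traced and 3.46 ± 3.92 in Postn-negative cells, a difference of 2.07. Clu, the gene of clusterin, which binds the attack complex in solution, was in 7 of 27 Postn-traced, 1 of 24 Postn-negative and 12 of 29 scar cells, and reached 14.04 in the scar.

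**Figure D4:**
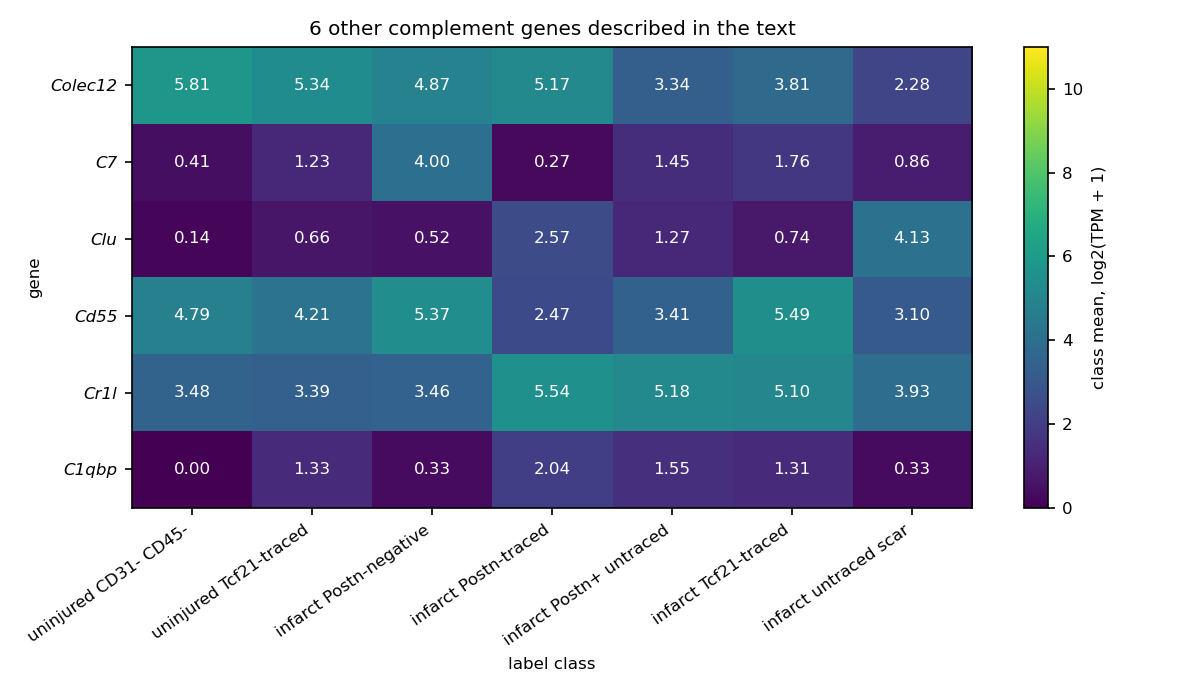
The grid gives class means of log2(TPM+1) for 6 other complement genes above 5 TPM in at least 10% of cells (rows) in the 7 classes of at least 12 cells (columns). C7 has its highest mean, 4.0, in the infarct Postn-negative cells, where that of Cd55 is 5.37.

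Genes of inflammatory signalling were taken from a list of 20, all found in the table. In Postn-traced against Postn-negative cells 7 were higher and 6 lower, beside 16.7% and 2.35% of all genes, with a median of -0.10 against 0.19. The higher genes were Stat3 (1.85), Ifngr2 (1.74), Il6st (1.59), Tnfrsf1a (1.29), Osmr, the oncostatin M receptor (1.27), Rela (1.14) and Hp, which was in 7 of 27 traced cells and listed at 0 in all Postn-negative cells. The lower genes were Irf1, an interferon-induced transcription factor (-2.85), Socs3, a feedback inhibitor of cytokine receptors (-2.13), Cebpd (-1.90), Ifngr1 (-1.75), Lifr (-1.64) and Il6 (-1.01). The receptor subunits Ifngr1 and Ifngr2 thus differed in opposite directions. In infarct against uninjured Tcf21-traced cells, which came from different captures, 7 were higher and 4 lower, beside 16.9% and 2.65% of all genes, with a median of 0.41 against 0.16. Osmr (2.51), Tnfrsf1a (2.37), Il1r1 (2.19), Il6 (1.85), Nfkb1 (1.41) and Ifngr2 (1.39) were among the higher genes, and Socs3 (-2.22), Irf1 (-1.85), Ifngr1 (-1.58) and Rela (-1.39) were lower. All are differences in class means of log2(TPM+1). Of the 20 genes 17 are widely detected. In the first comparison 6 of these 17 were higher and 6 lower, beside 31.9% and 4.42% of widely detected genes, with a median of -0.31 against 0.58. In the second 7 were higher and 4 lower, beside 33.4% and 4.72%, and their median of 0.31 was below that of widely detected genes, 0.62, whereas the median of the 20 was above that of all genes. Without the 29 cells with markers of other types 7 of 20 were higher and 6 lower in the first comparison and 7 and 4 in the second, and without the 4 they were 7 and 5, and 8 and 4. In the first comparison Il6 was then within 1 log2 unit without the 4 cells, at -0.97, and the median of the 20 genes changed sign in both repeats, to 0.02 and 0.09.

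Cell to cell, several members varied together. After the mean of each class within its capture was subtracted, Pearson's r over all cells was 0.46 between C3 and C1ra, 0.44 between C3 and Serping1, 0.39 between C1ra and C1s and 0.38 between C1ra and Serping1. Cells share captures and the values of a cell share its depth, so these are descriptions. By capture, r between C3 and C1ra was 0.15 in Jul24, 0.52 in Jul29, 0.55 in Nov4 and 0.49 in Nov11, and between C3 and Serping1 it was 0.35, 0.47, 0.48 and 0.50. Between C1ra and C1s it was 0.08, 0.41, 0.53 and 0.37, and between C1ra and Serping1 0.31, 0.27, 0.40 and 0.52. The pairs of C1ra with C3 and with C1s were thus lowest in Jul24, the capture of the uninjured cells. With genes per cell, r over all cells was 0.12 for C3, 0.09 for C1ra and 0.27 for Serping1. By capture, in the order above, it was 0.09, -0.07, -0.14 and 0.76 for Serping1. For C3 and C1ra it lay between -0.15 and 0.32. The Nov11 capture holds the cells with few genes.

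Among 5039 genes above 5 TPM in at least 20% of cells, the 3 most like C3 were C1ra, Serping1 and Serpina3n (0.40), and the 3 most like C1ra were C3, C1s and Serping1. For C1s they were C1ra, Entpd2 (0.37) and Fth1 (0.35). The genes closest to Serping1 included Ifitm3 (0.58) and Itm2b (0.53). C4b was closest to C1s (0.35), Flrt2 (0.34) and Renbp (0.34), Cfb to Gypc (0.31), St3gal4 (0.28) and Chid1 (0.28), and Cd59a to Mdh1 (0.32), Acp1 (0.31) and Ptpn2 (0.30). These last 3 members are at 0 in most cells. With Spearman's correlation the 3 closest genes of Serping1 and of Cfb were all different, with Rarres2 and Igfbp4 among those of Serping1 and Azi2, Rnf5 and Hbegf for Cfb, while the other 5 members kept at least 2 of 3.

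**Figure D5:**
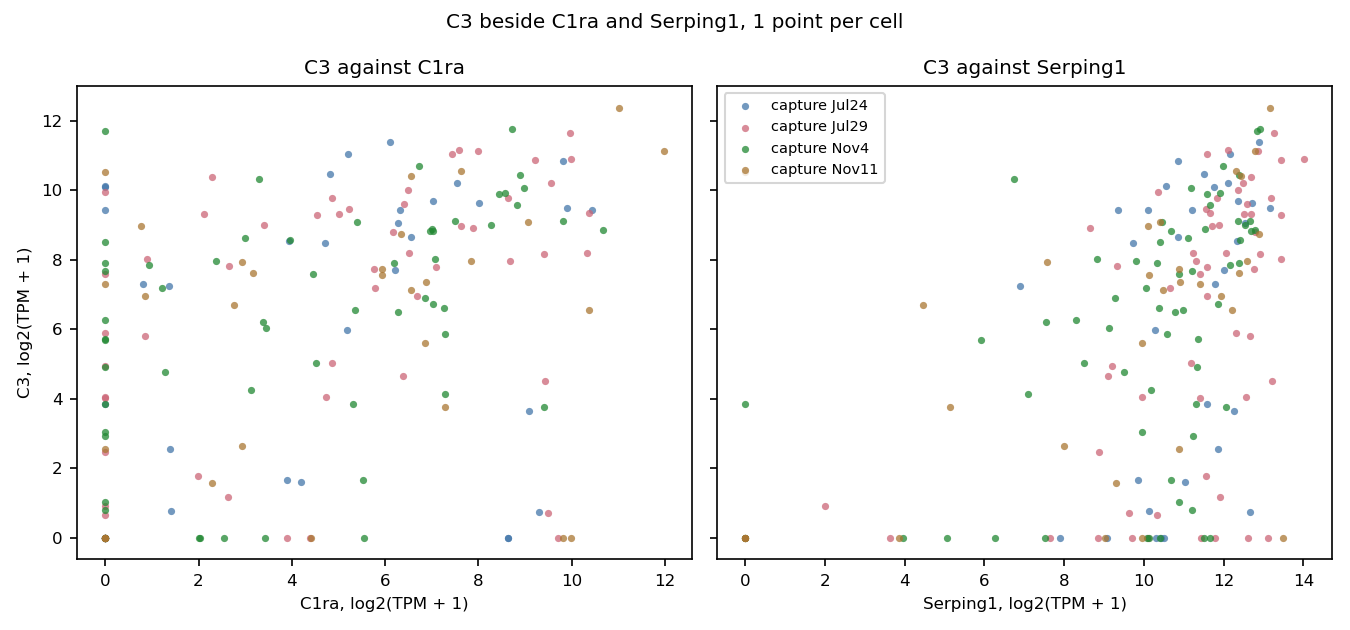
Each point is 1 cell, coloured by capture, with C3 on the y axis and C1ra (left) or Serping1 (right) on the x axis, all in log2(TPM+1). Cells high in C3 are mostly high in Serping1, and most of the cells with C3 at 0 have C1ra at 0 as well, while a few have it near 10.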

How the data were processed

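Per the labels, libraries of single heart cells were made by SMARTer amplification and Nextera tagmentation after Fluidigm C1 capture. What the authors deposited is a matrix of log2(TPM+1), with 17171 genes. The submitters' processing notes name Bowtie 1.0.0, eXpress 1.5.1 and mm10. The header gives TPM and the title FPKM. Values of a cell summed to at most 1000000, so they were read as TPM, and depth is unknown. The 3 columns without a sample were not used.

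Cells were grouped by label and capture. Class means of log2(TPM+1), with the authors' pseudocount of 1, were subtracted in 7 comparisons, 3 of them within a capture, with no test. The limits were 5 TPM in a cell and 1 log2 unit between classes. Clopper-Pearson intervals are at 95%, and a count of 0 was limited by 3 counts. The calculation of differences and of likeness was checked on simulated data with known shifts and a planted like gene. The genes named are all members, their copies, other complement genes above 5 TPM in at least 10% of cells, signalling genes past 1 log2 unit in the first 2 comparisons, and for each member the 3 genes with the highest Pearson's r among those in at least 20% of cells. Marker, driver and housekeeping genes are named for checks of the cells, and Rarres2, Igfbp4, Azi2, Rnf5 and Hbegf come from the alternative with Spearman's correlation. C1qa, C1qb, C1qc, C2, C6, C8g, C9, C1rl and Cfi fall outside this rule and were chosen after their values were seen. The members and lists were chosen with earlier results of these data known. Some genes that meet the rule are not reported here. Positions and shared 50-base stretches came from GENCODE for GRCm38.

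Alternatives were linear means, medians, pseudocounts of 0.1 and 5, centred cells, cells with at least 2000 genes, minimums of 1 TPM or above 0, a limit of 2 log2 units, other background genes and Spearman's correlation. Chosen after seeing the data were the leaving out of cells under 300 genes or with 3 markers of any other cell type (for members and later for the other lists), a narrower set of those marker lists picked once the first values were known, the C/EBP and TATA letters and the stretch length. A median difference was taken as changed when it moved by more than 1 log2 unit. Software was Matplotlib 3.10.9, SciPy 1.17.1, pandas 2.3.3 and NumPy 2.4.6 under Python 3.11.15.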

Additional observations from a re-analysis of the deposited data

Results flagged for a closer look

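C3 differed in opposite directions between infarct and uninjured hearts in traced and untraced cells. Its mean of log2(TPM+1) was lower in Postn-traced cells of the infarct than in uninjured Tcf21-traced cells, by a difference of -1.86, and higher in infarct Postn-negative than in uninjured CD31- CD45- cells, by 1.29. Both infarct classes came from the Jul29 capture and both uninjured classes from the Jul24 capture. The difference between these 2 differences was not tested, and each of these classes is 1 sample. With linear means neither difference was past 1 log2 unit (-0.83 and 0.29). For infarct against uninjured Tcf21-traced cells, set beside the same untraced comparison, no member was past 1 log2 unit in opposite directions, and C3 was at -0.82. C1ra came near it, at -1.67 in the Tcf21 lineage and 0.996 in untraced cells, and was past 1 log2 unit in opposite directions in 3 alternatives, with a pseudocount of 0.1 (-2.18 and 1.20), with centred cells (-1.22 and 1.03) and among cells with at least 2000 genes (-1.99 and 1.24). In 1 alternative each, so were C3 with medians over cells (-1.67 and 1.89), C4b (3.52 and -3.70) and Cfb (-1.17 and 2.0) with linear means, and C1s without the 29 cells with markers of other types (1.55 and -2.24). Beside Postn-traced cells, C1ra was so in 2 alternatives and C4b and Cfb in 1 each, with linear means. None of these differences was tested against the other.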

How the results depend on the processing

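The 23 member differences past 1 log2 unit were each recomputed under 8 alternatives, which gave 184 values. Of these 143 were past 1 log2 unit on the same side, 40 were within it and 1 was reversed, Cd59a in Postn-traced against Postn-negative cells with linear means (-0.82). The cause was not tested. Past 1 log2 unit in all 8 were Serping1 in Postn-traced against Postn-negative cells (-1.91 to -1.23) and in Postn-negative against uninjured CD31- CD45- cells (1.19 to 1.81), C1s in uninjured Tcf21-traced against CD31- CD45- cells (-2.83 to -1.53), C3 in infarct Tcf21-traced against Postn-positive untraced cells (1.16 to 2.73), and Cd59a in Postn-traced against uninjured Tcf21-traced cells. C3 in Postn-traced against Postn-negative cells was so in 7 of 8 (-3.47 to -0.63) and C1ra in 3 of 8 (-1.42 to -0.37). The median member difference of that comparison ran from -0.71 to 0.38 and had the other sign in 4 alternatives, and that of infarct against uninjured Tcf21-traced cells ran from -0.37 to 0.35 with the other sign in 3.

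Counts of members past the limit changed by more than 1.5 times as follows, and the cause was not tested. In Postn-traced against Postn-negative cells (2 higher, 3 lower) they were 1 and 1 with linear means, 1 higher with medians over cells or a pseudocount of 5, and 0 and 1 at 2 log2 units. In infarct against uninjured Tcf21-traced cells (1 and 1) they were 3 higher with linear means, 0 and 2 with medians, 2 higher among cells with at least 2000 genes, 0 lower at 2 log2 units, and 2 and 0 without the 29 cells with markers of other types. In Postn-traced against uninjured Tcf21-traced cells (2 and 2) they were 1 lower with linear means, a pseudocount of 5, centred cells or without the 29 cells, 1 higher with medians, and 1 and 0 at 2 log2 units. In Postn-negative against uninjured CD31- CD45- cells (3 and 1) they were 0 lower with a pseudocount of 5 or at least 2000 genes, and 0 and 0 at 2 log2 units. In infarct Tcf21-traced against Postn-traced cells (1 and 2) they were 0 and 1 with linear means or without the 4 cells with other markers, 2 higher with a pseudocount of 0.1 or without the 29 cells, 0 and 0 with a pseudocount of 5 or at 2 log2 units, 0 higher with centred cells and 1 lower with at least 2000 genes. Against Postn-positive untraced cells (2 and 0) they were 4 higher with linear means, 1 lower with medians and 0 higher at 2 log2 units. In uninjured Tcf21-traced against CD31- CD45- cells (2 and 1) they were 1 and 2 with linear means, 1 higher with a pseudocount of 5 or without either set of marked cells, and 0 and 0 at 2 log2 units. Leaving out marked cells was chosen after seeing the data.

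Over the 7843 genes above 5 TPM in at least 10% of cells, all 14 background shares were more than 1.5 times those over all genes. Shares of cells also depended on the minimum. C4b was above 5 TPM in 1 of 33 uninjured cells but listed at 0 in 30 of 33. Cd59a was above 5 TPM in 3 of 24 Postn-negative cells but listed at 0 in 19 of 24. Over the alternatives run for shares, 17 values were labelled as moved and 263 as the same. Depth per cell is unknown, which limits every statement on a gene listed at 0.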
